A study of Mus musculus with 22 samples.

Results

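The genes described here are Tcf7l2, Lef1, Gbx2, Rora, Prkcd and Ramp3, 6 genes known for their expression in the developing thalamus, taken by name from 20129 gene symbols that could be read from the arrays. Expression density, the amount of transcript per brain slab, was read for them along 3 body axes by Transcriptome Tomography, which cuts a brain into serial slices and pools neighbouring slices into slabs, here called fractions. There were 22 fractions, 10 in the coronal, 6 in the horizontal and 6 in the sagittal series, and each series was the brain of a different male C57BL/6J mouse, an inbred strain. No treatment or genetic change was given for any of the 3 mice. Their age was 7 days by the sample titles, whereas the age field gave 3 days. The last coronal fraction and the first and last sagittal fractions pooled more than 1 slab. At which end of the brain each numbering began was not stated. Single arrays without replicates were run for the fractions, and a difference between series cannot be told apart from a difference between mice.

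The thalamus is the relay of the forebrain through which most sensory signals reach the cortex. Its neurons arise in the diencephalon under the influence of Wnt signalling, in which a secreted Wnt ligand binds a Frizzled receptor, beta-catenin accumulates and enters the nucleus, and there it joins DNA-binding proteins of the TCF/LEF family. Tcf7l2 and Lef1 encode members of that family, Gbx2 encodes a homeodomain factor of developing thalamic neurons and of the midbrain-hindbrain boundary, and Rora encodes a nuclear receptor that Purkinje cells of the cerebellum need. Prkcd encodes the delta isoform of protein kinase C, which is abundant in sensory thalamic nuclei, and Ramp3 encodes an accessory protein that changes the ligand choice of the calcitonin receptor-like receptor. A fraction holds a whole slab of brain with all its regions, so fewer cells of a type and less RNA per cell cannot be told apart in these data.

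The genes lie on different chromosomes of the mouse genome (build GRCm38.p6, RefSeq). Tcf7l2 is on chromosome 19 from 55741797 to 55933659, Lef1 on chromosome 3 from 131110297 to 131224357, Gbx2 on chromosome 1 from 89927962 to 89931176, Rora on chromosome 9 from 68653404 to 69388246, Prkcd on chromosome 14 from 30595353 to 30626414 and Ramp3 on chromosome 11 from 6658506 to 6677478. Because 2 of the 6 encode TCF/LEF factors, the 250 bases before each RefSeq start site of the 6 genes were searched on both strands for the core of the motif those factors bind, CTTTGA or CTTTGT. It was present before 1 of 2 starts of Tcf7l2, 1 of 4 of Lef1 and both of Prkcd, and before none of the starts of Gbx2, Ramp3 and Rora. The same letters occurred in 27.6% of 32851 windows of that length before mouse start sites. The stretches before the downstream start of Tcf7l2 (chr19:55895071-55895320, plus strand) and the downstream start of Lef1 (chr3:131156044-131156293, plus strand) are given as the motif-holding stretches of the genes that encode TCF/LEF factors themselves, with the motif in capitals on whichever strand it was read.
Tcf7l2 downstream start: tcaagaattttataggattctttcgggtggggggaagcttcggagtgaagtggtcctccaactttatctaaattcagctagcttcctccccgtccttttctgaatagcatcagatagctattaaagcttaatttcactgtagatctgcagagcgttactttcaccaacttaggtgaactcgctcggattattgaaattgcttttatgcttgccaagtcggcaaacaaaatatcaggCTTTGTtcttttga
Lef1 downstream start: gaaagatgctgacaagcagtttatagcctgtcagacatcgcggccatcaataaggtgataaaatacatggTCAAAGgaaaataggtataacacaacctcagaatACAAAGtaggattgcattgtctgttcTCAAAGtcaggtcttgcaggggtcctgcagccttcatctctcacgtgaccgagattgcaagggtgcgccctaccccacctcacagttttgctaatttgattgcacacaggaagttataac
Both stretches lie inside the gene. The Lef1 stretch held 3 matches and the Tcf7l2 stretch 1. The nuclear receptor core site AGGTCA, found in 14% of all windows, and the homeodomain core TAATTA, found in 4.84%, were present before none of the starts of the 6 genes. A match is a description of letters and not a measured binding site.

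Levels are on a log2 scale relative to the 75th percentile of processed intensity on the same array, so a level of 0 is a probe at that percentile. Each gene was read from 1 probe, and since probes differ in brightness the levels of different genes are not set against each other, only their courses over the fractions. All 6 genes belonged to the 16691 genes that were detected (well above background) in at least 1 fraction of every series. Gbx2 was detected in 20 of the 22 fractions and the other 5 genes in all 22. The Gbx2 values not well above background were those of horizontal fraction 1 and sagittal fraction 1. The error that the scanner software attaches to a level was 0.145 log2 units for most values and reached 0.616 for a dim Gbx2 value. Probes spotted repeatedly on an array varied by a median SD of 0.0656 when bright and 0.192 when dim. A difference between fractions was called larger than this error when it exceeded 1.96 times the combined error, about 0.40 log2 units. Ordered by level within each series, 34 of the 114 gaps from 1 level to the next were larger than the error. These gaps follow the order of levels and not the order of fractions along the brain. On 7 of the 22 arrays (coronal 1 and 2, horizontal 1 to 3, sagittal 1 and 3) the slope of the spike-in controls was out of the accepted range, and a dim spike-in probe, a107, read 6.38 to 8.23 there against 2.86 to 4.96 on the other arrays (log2). These arrays were all among the first 3 fractions of their series, so this difference runs along with position.

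Genes of known regions place the fractions. Hoxb5, a hindbrain gene, was highest in coronal fraction 1, at 4.44, and Tbx21, a gene of olfactory bulb projection neurons, in coronal fraction 10, at 2.87. Hcrt, the hypocretin gene of the lateral hypothalamus, had its single high value in coronal fraction 6, at 3.47 against a next highest level of -0.55. Pitx3, a gene of midbrain dopamine neurons, was highest in coronal fractions 4 and 5, at -1.52 and -1.80. Along the horizontal series the mean of 4 cortex genes was highest in fraction 1, at 1.07 above their own mean, and that of 6 hypothalamic genes in fraction 6, at 4.06 above. The mean of 14 thalamic genes other than the 6 was highest in coronal fractions 4, 5 and 6, at 0.80, 0.50 and 0.75 above its own mean. The SD over genes was 0.93, 0.79 and 0.60 there. Slc6a4 had a single high value, 1.31 in fraction 4, against -0.74 or lower elsewhere in the series. Plekhg1 and Cacna1g were highest in fraction 1, Synpo2 and Tnnt1 in fraction 3, Rgs16 and Sox2 in fraction 7 and Calb2 in fraction 10. The rest were highest in fractions 4 to 6.

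Tcf7l2, Lef1 and Rora, 3 of the 6 genes, changed along the coronal series in limma (F test of a linear and a quadratic term, Benjamini-Hochberg over 39621 probes). Among all probes 19.8% passed this test, and among the 16691 genes read from 1 probe each 25.4% passed. Tcf7l2 (adjusted p 0.0362) and Lef1 (adjusted p 0.0454) were higher in the middle of the series than at its ends, a course called for 8.12% of genes, and Rora (adjusted p 0.00608) fell from fraction 1 to fraction 10. Prkcd (adjusted p 0.107), Ramp3 (adjusted p 0.267) and Gbx2 (adjusted p 0.417) did not pass. A quadratic curve cannot follow 2 separate high stretches. With cubic and quartic coronal terms, added after the profiles had been seen, all but Gbx2 passed (22.9% of all probes), with adjusted p of 0.00108 for Tcf7l2 and 0.0928 for Gbx2. With a107 as a covariate Rora alone passed, when only the 15 arrays in range were kept Ramp3 alone (adjusted p 0.0424), and with slide as a block none did. The number of all 39621 probes that passed was also lower under these settings, 4311, 4133 and 1598 against 7850. Each p-value measures the scatter of single arrays of 1 brain around a curve, not the spread between mice.

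**Figure D1:**
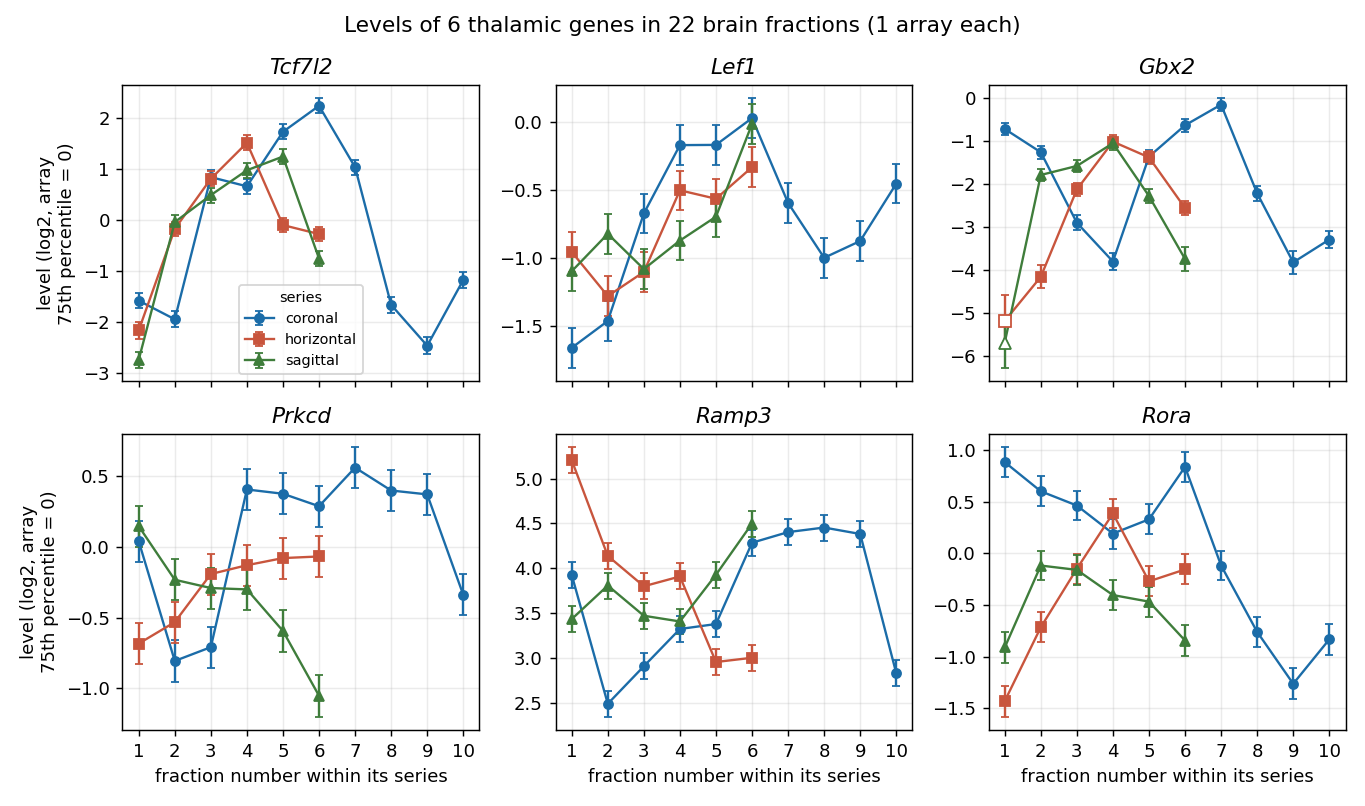
Level of each gene (log2, array 75th percentile at 0) against the fraction number, in the coronal (circles), horizontal (squares) and sagittal (triangles) series, 1 array per point, bars are the scanner software's error of the value and open symbols mark values not well above background. Tcf7l2 has 1 coronal summit at fraction 6 (2.23), Gbx2 has separate high stretches at fractions 1 to 2 and 5 to 7, and Ramp3 is highest in horizontal fraction 1 (5.20).

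Tcf7l2 had the most confined coronal profile of the 6. Along the coronal series its level ran from -2.46 in fraction 9 through a median of -0.26 to 2.23 in fraction 6. The 10 coronal levels, from fraction 1 on, were -1.58, -1.94, 0.84, 0.66, 1.72, 2.23, 1.03, -1.66, -2.46 and -1.18. Fractions 3 to 7 were thus the high ones, and the largest gap in the order of levels, 1.83 log2 units, lay below them. This split was read from the same values and is a description, not a test. The fitted curve was 3.32 ± 0.87 log2 units higher in the middle than at the ends (SE). This size was 5.96 without coronal fraction 10, where the curve runs beyond the fractions fitted, and 1.77 when only the arrays in range were kept (adjusted p 0.149 in limma). In the horizontal series Tcf7l2 stood highest in fraction 4, at 1.51, and lowest in fraction 1, at -2.16. In the sagittal series it was highest in fraction 5, at 1.24, which did not differ from fraction 4, at 0.97, beyond the error, and lowest in fraction 1, at -2.74. The coronal call was lost without coronal fraction 4, 5, 6 or 7, with adjusted p of 0.0563, 0.0857, 0.0909 and 0.0685 in limma. Of the other probes of Tcf7l2, one followed the same course (r of 0.893 over 22 fractions, adjusted p 0.285), and one was nearly flat, between -1.67 and -0.60, with r of -0.373 and adjusted p 0.347.

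Lef1, the partner of Tcf7l2 in its protein family, showed a lower and wider rise in the middle coronal fractions. Its coronal levels ran from -1.66 in fraction 1 through a median of -0.64 to 0.03 in fraction 6. Fractions 4, 5 and 6, at -0.17, -0.17 and 0.03, were above all other coronal fractions, and fraction 10 followed at -0.46. The fitted middle was 0.95 ± 0.31 log2 units above the ends, a size that was 1.82 without coronal fraction 10 and 0.15 when only the arrays in range were kept. Lef1 moved little along the horizontal series, from -1.28 in fraction 2 to -0.33 in fraction 6. In order of level, no horizontal level differed from the next beyond the error, but fractions 3 and 4, at -1.10 and -0.50, differed beyond it. In the sagittal series fractions 1 to 5 lay between -1.10 and -0.70, and fraction 6 stood above them at -0.02. The Lef1 call was the least stable of the 3. It held in 5 of the 22 fits that left out 1 fraction (without coronal 8, 9 or 10 or horizontal 1 or 2), was lost in the others with adjusted p up to 0.256 in limma (without coronal 1), and held in 5 of 13 other alternatives.

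Gbx2 had separate high stretches along the coronal series. Its levels were -0.72 and -1.26 in fractions 1 and 2, -2.90 and -3.81 in fractions 3 and 4, -1.36, -0.63 and -0.15 in fractions 5 to 7, and -2.22, -3.83 and -3.29 in fractions 8 to 10. Fraction 4 was thus as low as fraction 9 (the gap of 0.02 log2 units was within the error), while for Tcf7l2 fraction 4 belonged to the high stretch. The summit in fraction 7 exceeded fraction 6 beyond the error, and fraction 6 did not differ from fraction 1 beyond it. The arrays of coronal fractions 1 and 2 were among those with the slope out of range, and the part of this in the first high stretch was not tested. Along the horizontal series Gbx2 was highest in fraction 4, at -1.01, and did not differ there from fraction 5, at -1.38, beyond the error. Its horizontal fraction 1, at -5.19, was not well above background. In the sagittal series it was highest in fraction 4, at -1.05, with fractions 2 and 3 at -1.79 and -1.58, and the outer fractions 1 and 6 lay at -5.70, not well above background, and -3.75.

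Rora declined along the coronal series. It stood at 0.88 in fraction 1, 0.60, 0.46, 0.19 and 0.33 in fractions 2 to 5, 0.84 in fraction 6, -0.12 in fraction 7 and -0.76, -1.26 and -0.83 in fractions 8 to 10. Fractions 1 to 6 all stood above fractions 7 to 10. In order of level, the first gap beyond the error was that of fraction 7 over fraction 8. Along the axis the fall from fraction 6 to fraction 7 was also beyond the error. The summits in fractions 1 and 6 differed by 0.05 log2 units, within the error, and when arrays were centred on their median fraction 6 was the higher of them. From first to last fraction the linear term fell by 1.95 ± 0.35 log2 units. The call held in 22 of 22 fits without 1 fraction (adjusted p 0.00262 to 0.0179 in limma) and in 10 of 13 other alternatives. It was lost with slide as a block (0.244), when only the arrays in range were kept (0.0839) and on the coronal arrays alone (0.0777), where the linear term fell by 1.5, 1.83 and 1.95 log2 units. In the horizontal series Rora was highest in fraction 4, at 0.39, and lowest in fraction 1, at -1.43. In the sagittal series it varied between -0.91 in fraction 1 and -0.12 in fraction 2, a step beyond the error. In order of level, no sagittal level differed from the next beyond it.

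Prkcd varied least along the coronal series, over 1.37 log2 units. Coronal fractions 4 to 9 lay between 0.29 and 0.56, fraction 1 at 0.04, fraction 10 at -0.34, and fractions 2 and 3 at -0.81 and -0.71. The fractions lower than this plateau were therefore the first 3 and the last. In order of level, no coronal or horizontal level differed from the next beyond the error. Along the axis the level rose beyond the error from coronal fraction 3 to fraction 4, from -0.71 to 0.41. The horizontal levels ran from -0.68 in fraction 1 to -0.07 in fraction 6, the smallest range of the 6 genes in any series. In the sagittal series Prkcd lay at 0.15 in fraction 1, between -0.59 and -0.23 in fractions 2 to 5, and at -1.05 in fraction 6. The other Prkcd probe followed the one used (r of 0.950) and did not pass either (adjusted p 0.120 in limma). Without coronal fraction 1 the coronal test of Prkcd passed in limma, with an adjusted p of 0.000702.

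Ramp3 had its highest level of all 22 in horizontal fraction 1, where Tcf7l2, Gbx2, Rora and Prkcd each had their lowest horizontal level. Its horizontal levels from fraction 1 on were 5.20, 4.14, 3.80, 3.91, 2.96 and 3.01. In order of level, fraction 1 exceeded fraction 2 beyond the error, fractions 2, 3 and 4 did not differ, and these exceeded fractions 5 and 6. Along the coronal series it stood at 4.29 to 4.45 in fractions 6 to 9, where no levels differed beyond the error, at 3.93 in fraction 1 and at 2.49 to 3.38 in fractions 2 to 5 and 10. In the sagittal series it was highest in fraction 6, at 4.50, against 3.41 to 3.93 in the other fractions. The coronal test of Ramp3 passed in limma without coronal fraction 1 (adjusted p 0.0026) or without coronal fraction 10 (0.0448), but with curves of opposite direction. On the log2 scale the fitted ends minus the fitted middle were -1.95 without fraction 1 and 0.65 without fraction 10, against -0.72 with every fraction.

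Along the horizontal and sagittal series none of the 6 genes passed. For the horizontal series, where 6.57% of all probes and 8.35% of genes passed, the adjusted p in limma was 0.0648 for Rora, 0.0891 for Gbx2, 0.0944 for Ramp3, 0.130 for Tcf7l2, 0.232 for Lef1 and 0.352 for Prkcd. Unadjusted, Rora (0.00674), Gbx2 (0.0172), Ramp3 (0.0207) and Tcf7l2 (0.0486) lay under 0.05, as did 15041 of all 39621 probes. The linear term of Ramp3 was -2.06 ± 0.66 log2 units from fraction 1 to fraction 6, and no size is given for Gbx2, whose fraction 1 was not well above background. For the sagittal linear term 10.2% of all probes, 9.69% of genes and none of the 6 genes passed, the nearest being Prkcd (adjusted p 0.110). For the sagittal quadratic term 0.0303% of all probes passed. There the adjusted p was 0.132 for Gbx2, whose sagittal fraction 1 was not well above background, and 0.170 for Tcf7l2, whose fitted middle was 2.77 ± 0.93 log2 units above the ends. The fit shares 1 estimate of spread over the 3 series. Without coronal fraction 10 Tcf7l2 (0.0489), Ramp3 (0.0425) and Rora (0.0411) passed along the horizontal series, without coronal fraction 1 Ramp3 (0.021) and without coronal fraction 6 Rora (0.0432), and without coronal fraction 1 Prkcd passed in the sagittal linear term (0.0106).

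How far each gene was spread was read from the share of its summed linear signal along a series. Tcf7l2 had 67.2% of its coronal signal in its peak fraction and the fractions next to it, against 30% for an even spread and a median of 35.2% over all genes, a share at percentile 97.0 of the genes. Gbx2 had 49.6% there, Ramp3 45.9%, Lef1 39.3% and Prkcd 36.7%. The peak of Rora was at the end of the series with 1 neighbour, and held 29.4% against 20% for an even spread. By blocks, coronal fractions 4 to 6 held 64.1% of the Tcf7l2 signal, 42.8% of the Lef1 signal, 36.7% of the Rora signal and 35.2% of the Prkcd signal, against a median of 30.2% over all genes. The shares of Gbx2 (31.1%) and Ramp3 (28.7%) there were close to that median. Fractions 1 to 3 held 41.5% of the Rora signal, 32.6% of the Gbx2 signal and 15.9% of the Tcf7l2 signal, against a median of 29.3%. Fractions 7 to 9 held 45.9% of the Ramp3 signal and 37.4% of the Prkcd signal, against a median of 29.6%. The number of coronal fractions within 1 log2 unit of the peak was 2 for Tcf7l2, 3 for Gbx2, 5 for Ramp3, 6 for Rora, 7 for Lef1 and 8 for Prkcd, and the median over all genes was 8. In the horizontal series the peak and its neighbours held 81.5% of the Gbx2 signal, 74.1% of the Tcf7l2 signal and 61.8% of the Rora signal (median over all genes 53.6%), and in the sagittal series 72.8% of the Gbx2 signal and 66.1% of the Tcf7l2 signal (median 49.9%). An even spread gives 50% for the sagittal shares of Gbx2 and Tcf7l2, whose peaks have neighbours on both sides. Over all genes the median even spread was 33.3%, so the median of 49.9% mostly counts fewer fractions. The peak fractions of Tcf7l2 and Gbx2 were the same under 5 of 5 other scalings in every series, while the coronal peak of Ramp3 kept its fraction in 1 of 5, moving between fractions 7 and 8, and that of Rora in 3 of 5. Along the coronal series Tcf7l2 was by these measures the most confined of the 6, and Lef1 and Prkcd were spread nearly as widely as the median gene.

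**Figure D2:**
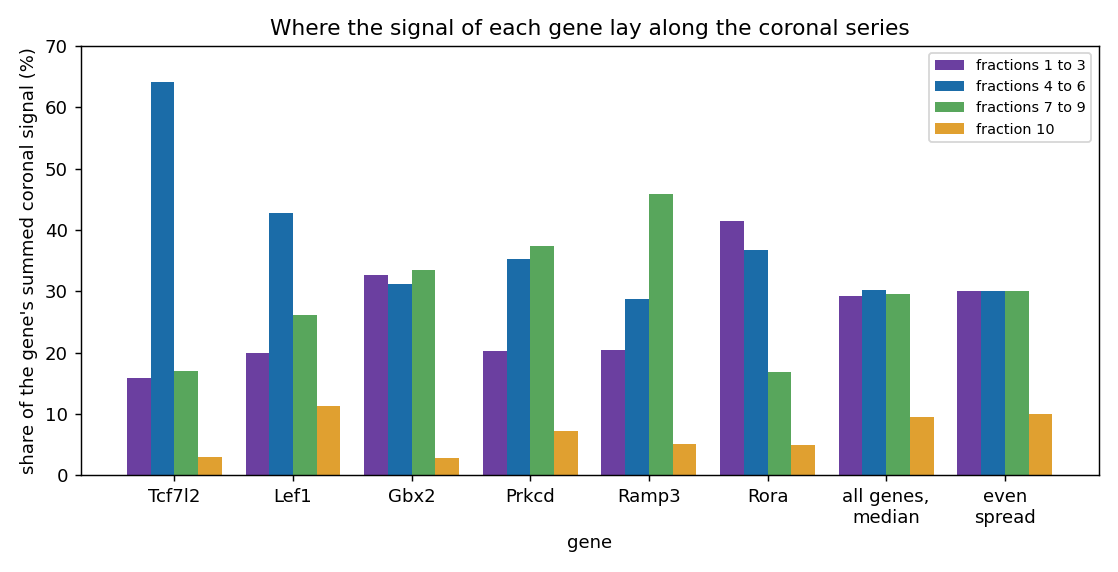
Share of each gene's summed linear coronal signal (percent) in fractions 1 to 3, 4 to 6, 7 to 9 and fraction 10, beside the median over 16691 genes and an even spread. Fractions 4 to 6 hold 64.1% of the Tcf7l2 signal, fractions 1 to 3 hold 41.5% of the Rora signal and fractions 7 to 9 hold 45.9% of the Ramp3 signal.

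A Pearson r above 0.85 over all fractions was taken as the mark of a shared profile, and by that measure no pair of the 6 genes shared one. Over the 22 fractions 0 of 15 pairs exceeded it, and the median r was 0.13. These r are descriptions, since the 22 points come from 3 brains and all genes share the arrays. The most alike pair was Gbx2 and Rora (0.705), followed by Tcf7l2 with Gbx2 (0.574), with Rora (0.539) and with Lef1 (0.522). This order depended on the settings. Without scaling Tcf7l2 with Lef1 was the most alike (0.782) and without coronal fraction 1 Tcf7l2 with Rora (0.689), and with a107 regressed out Tcf7l2 with Lef1 had r of 0.218. Ramp3 had r between -0.411 (with Rora) and 0.107 (with Prkcd). Within the coronal series the highest r were 0.816 for Prkcd with Ramp3 and 0.780 for Tcf7l2 with Lef1, while Tcf7l2 and Gbx2 had 0.332. The Gbx2 values of fraction 1, not well above background, enter its horizontal and sagittal r. Within the 6 horizontal fractions 4 pairs exceeded 0.85: Tcf7l2 with Rora (0.936), Gbx2 with Rora (0.933), Gbx2 with Prkcd (0.926) and Prkcd with Rora (0.881). Within the 6 sagittal fractions 3 pairs did: Lef1 with Ramp3 (0.953), Tcf7l2 with Gbx2 (0.918) and Gbx2 with Rora (0.860). Tcf7l2, Gbx2 and Rora therefore had r between 0.690 and 0.936 with each other in the horizontal and sagittal series, and between 0.332 and 0.593 along the coronal series. With only the 15 arrays in range 1 pair exceeded 0.85, Tcf7l2 with Rora (0.858).

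**Figure D3:**
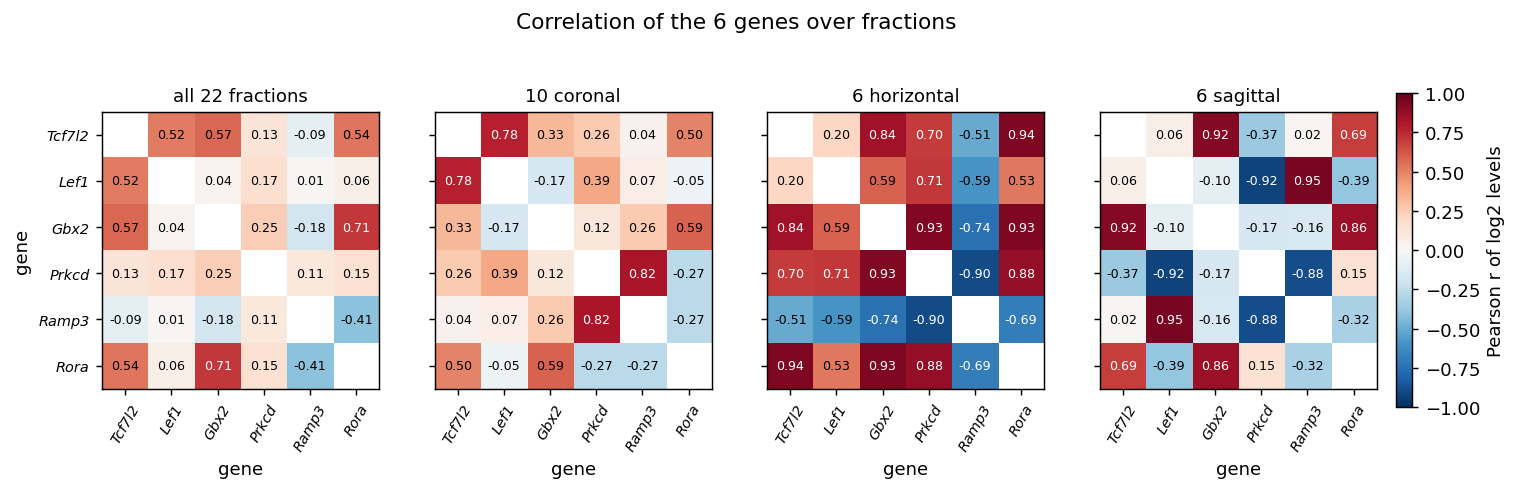
Pearson r of log2 levels for the 15 pairs of genes over all 22 fractions and within the coronal, horizontal and sagittal series, with the value in each cell and colour from -1 (blue) to 1 (red). Over 22 fractions the highest r is 0.71 (Gbx2 with Rora), and in the horizontal panel Ramp3 is negative with the other 5 genes, down to -0.90 with Prkcd.

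Whether the course of a gene differed from that of Tcf7l2 was tested on the difference of each probe from the Tcf7l2 probe on the same array, in which the scaling of arrays cancels. Along the coronal series 3 of the other 5 genes differed, Rora (adjusted p 0.0163), Lef1 (0.0295) and Prkcd (0.0431), with Ramp3 at 0.0558 and Gbx2 at 0.0921 in limma. Among all probes 93% differed, so the count says no more than that the genes differed from Tcf7l2 as most probes did. With cubic and quartic terms all 5 differed, as did 99.5% of probes. Without coronal fraction 5 or 6 none of the 5 differed, and without coronal fraction 8 or 10 all 5 did. The Prkcd difference held in 5 of 22 fits without 1 fraction and those of Lef1 and Rora in 19. None of the 3 held with a107 as a covariate, with only the arrays in range or with slide as a block, where 1869, 1760 and 0 of all 39618 probes differed, and all 3 turned direction against the next Tcf7l2 probe. The excess of the coronal middle over the ends was larger for Tcf7l2 than for each of the 5 genes, by 2.38 (Lef1) to 2.99 (Rora) log2 units, with SE of 0.89 to 1.17. Without coronal fraction 10 these sizes were 4.14 (Lef1) to 6.61 (Ramp3), and with only the arrays in range they were 1.62 for Lef1, 1.33 for Rora, 0.18 for Prkcd, -0.69 for Ramp3 and -2.25 for Gbx2. Along the horizontal and sagittal series 0 of 5 genes and 0% of all probes differed in limma, where 18523 and 32709 of 39618 probes had an unadjusted p under 0.05. The smallest adjusted p of the 5 genes was 0.0984 (Ramp3) in the horizontal series and 0.0504 (Lef1 and Prkcd) in the sagittal series.

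The genes whose course was most like each of the 6 were taken over all 22 fractions. Lhx9, a LIM-homeodomain factor of the diencephalon, was nearest to Tcf7l2 (r of 0.933, and 0.954, 0.834 and 0.968 within the coronal, horizontal and sagittal series), then Slitrk6 (0.878) and Tpsg1 (0.874), the last detected in 11 fractions. Lhx9 was at 1.18, 1.41, 1.09, 1.46 and 1.07 in coronal fractions 3 to 7 and at -1.48 or lower elsewhere in that series, so its high fractions were those of Tcf7l2. Lef1 was nearest to Kcp (0.917), Sfswap (0.905) and Eif4enif1 (0.889). For Gbx2 no gene exceeded 0.85, and the nearest were Rbms3 (0.799), Slc14a1 (0.781) and Rgs8 (0.779). Rora was nearest to Gria4 (0.914), which encodes an AMPA receptor subunit, Zmat4 (0.894) and Nrn1 (0.891). Prkcd was nearest to Ptprn (0.934), Prepl (0.927) and Syngr1 (0.923), and Ramp3 to Akap7 (0.870), Fkbp1b (0.834) and Arhgdig (0.804). The number of genes above 0.85 was 3 for Tcf7l2, 7 for Lef1, 0 for Gbx2, 13 for Rora, 127 for Prkcd and 1 for Ramp3, against a median of 29 over all genes.

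The 14 other genes of the thalamus, which include Lhx9, did not share 1 coronal peak, so their mean is a loose measure of thalamic tissue. Tcf7l2 followed this mean course in every series, with r of 0.912, 0.883 and 0.934 in the coronal, horizontal and sagittal series. With 4 hippocampus genes it had r of 0.915, 0.915 and 0.415, so these lists cannot be told apart by Tcf7l2 along the coronal and horizontal series. Lef1 had r of 0.739, 0.565 and -0.207 with the thalamic genes. Gbx2 and Rora followed them in the horizontal (0.971 and 0.973) and sagittal series (0.960 and 0.846) and less along the coronal series (0.166 and 0.555). Prkcd had r of 0.308, 0.936 and -0.130, and Ramp3 of -0.00, -0.81 and -0.24. Each of the genes other than Tcf7l2 thus had an r of 0.555 or lower with this list in at least 1 series, and Ramp3 had a positive r with it in none. Of the 14 genes 6 changed along the coronal series in limma (25.4% of all genes), 2 of them with a raised middle, Lhx9 (adjusted p 0.0202) and Zfhx3 (0.00342). Lhx2, a LIM-homeodomain gene also of the cortex (0.00333), had a positive linear term with its highest level in fraction 5. The linear term was negative for Slc17a6 (0.0474), the vesicular glutamate transporter of thalamic neurons, which was highest in fraction 6, for Shox2 (0.0244), highest in fraction 4, and for Plekhg1 (0.0420), highest in fraction 1. The median r of the 14 genes with Tcf7l2 was 0.53, and that of all genes 0.12.

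Rora is also known from Purkinje cells, Prkcd and Ramp3 from other forebrain neurons and Gbx2 from cholinergic neurons of the striatum, and marker lists of other regions were measured in the same slabs. The Purkinje cell list (Pcp2, Car8, Ppp1r17 and Itpr1, with Skor2 not in the main set) was high in coronal fractions 1 to 3, at 1.51, 1.84 and 1.82 above its own mean, where Rora was at 0.88, 0.60 and 0.46. Its summed level was 6.25 to 6.86 there, with all 5 listed genes detected, and 2.84 to 5.02 in coronal fractions 4 to 10, with 3 or 4 detected. Pcp2, the defining Purkinje cell gene, reached 6.70 in fraction 3 and fell to 0.02 at its lowest. Over the 10 coronal fractions Rora had r of 0.710 with that list and 0.734 with 6 oligodendrocyte lineage genes. The sagittal r were 0.627 and 0.948. The Rora level in coronal fraction 6, where the Purkinje list was 0.60 below its mean, was as high as in fraction 1. The coronal r of Rora was 0.845 with Pou4f1, Chrna3 and Chrnb4, which were listed for the habenula. Pou4f1 was highest in fraction 1 and Chrna3 and Chrnb4 in fraction 3. Gpr151, also listed, was highest in fraction 6 and not in the main set, so the list did not single out the habenula. The cortex list (Tbr1, Neurod6, Emx1 and Mef2c) had a summed level of 0.17 to 0.95 in coronal fractions 1 to 3 and 3.46 to 5.36 in fractions 4 to 10. Prkcd and Ramp3 had r of 0.751 and 0.567 with it along the coronal series, and of 0.779 and 0.826 with 5 striatum genes. In the horizontal series, where the cortex list went from 1.07 above its mean to 1.08 below it, Ramp3 had r of 0.928 and Prkcd of -0.935. With the striatum list their horizontal r were -0.730 and 0.895. Along the sagittal series the r of Ramp3 were 0.178 with the cortex and 0.403 with the striatum list, and those of Prkcd 0.243 and 0.0093. Lef1 had r of 0.651, 0.720 and 0.882 with 5 endothelium genes in the coronal, horizontal and sagittal series. The 4 cholinergic genes did not share a coronal course. Chat, Slc5a7 and Slc18a3 were highest in fraction 1 and Lhx8 in fraction 8, and the summed level of the list was 2.10 in fraction 1 and 2.13 in fraction 7, with a lowest value of -1.02 in fraction 10. Gbx2 had r of 0.450 with the mean of this mixed list. The part of these other cells in the levels of the 6 genes was not tested.

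**Figure D4:**
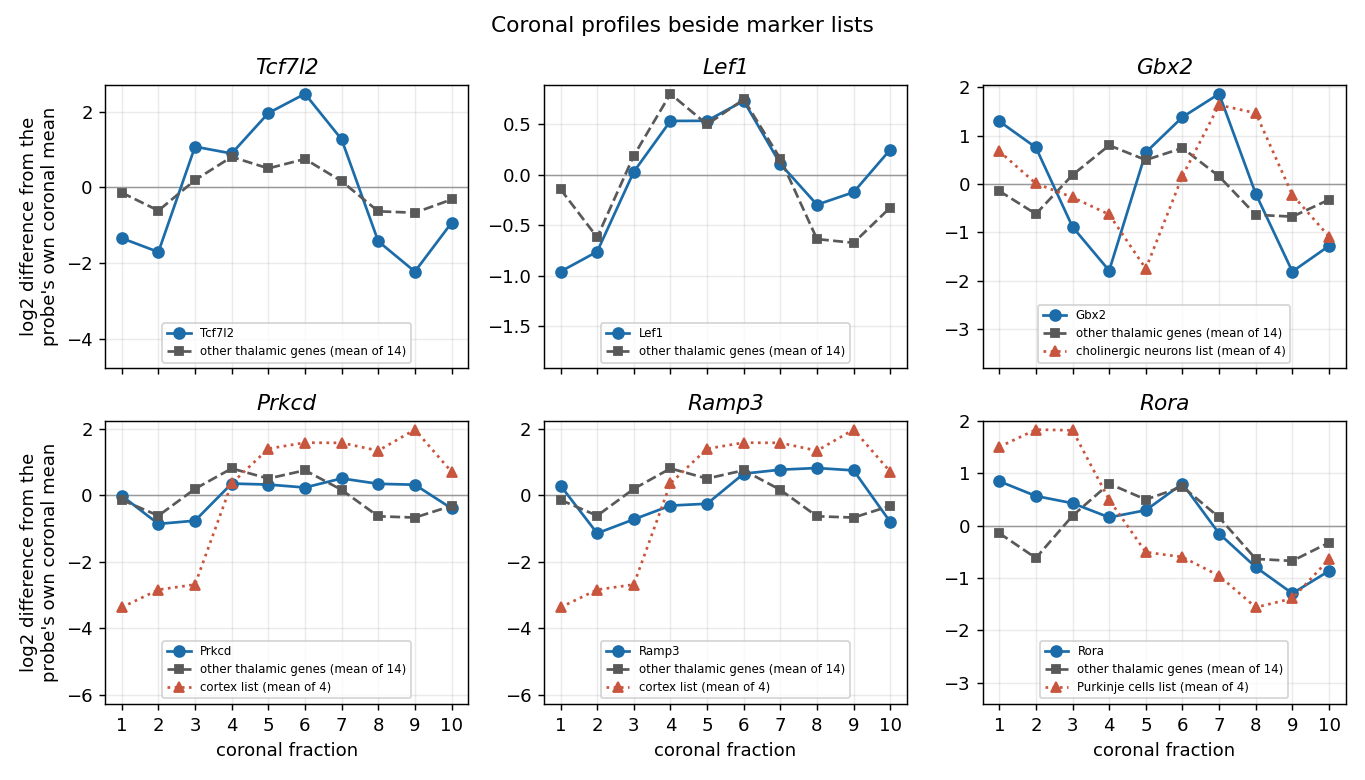
Coronal course of each gene as the log2 difference from its own coronal mean (circles) beside the mean of 14 other thalamic genes (squares) and, for Gbx2, Prkcd, Ramp3 and Rora, the mean of a marker list of other cells (triangles), by coronal fraction. Tcf7l2 and the thalamic mean are both raised in fractions 3 to 7. Lef1 lies above its own mean there and also in fraction 10, where the thalamic mean is low. Prkcd is raised in fractions 4 to 9 with the cortex list. Ramp3 is raised in fraction 1 and fractions 6 to 9, while the cortex list is low in fraction 1 and already raised in fractions 4 and 5. Both genes had a higher coronal r with the striatum list, which is not drawn. Rora is raised in fractions 1 to 6, while the Purkinje cell list is below its mean in fractions 5 and 6.

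The other genes of the Wnt pathway were read by role, and their counts stand beside 25.4% of all genes that changed along the coronal series. Among the ligands and R-spondins, 2 of 7 changed along the coronal series in limma, and Wnt3a, the last of the 8 listed, was detected in 0 fractions. Wnt3 (adjusted p 0.0319) had a negative linear term and Rspo2 (0.0417) had a raised middle, each with its highest level in fraction 6, that of Tcf7l2. Of 11 receptors and coreceptors 1 changed, Fzd1 (0.0313), with a negative linear term and its highest level in fraction 4. Of the 3 mediators Ctnnb1 (0.0101), which encodes beta-catenin, rose by 0.76 log2 units along the series, while Tcf7 and Tcf7l1, the other members of the TCF/LEF family, did not pass (0.498 and 0.656). Of 8 targets and inhibitors 4 changed. Nkd1 (0.00288) and Sp5 (0.0174) fell, Rnf43 (0.0126) had a raised middle with its highest level in fraction 6, and Lgr5 (0.0391) was raised at the ends. Axin2, a widely used readout of the pathway, did not pass (0.114). Median r with Tcf7l2 was 0.16 for the ligands, 0.25 for the receptors, 0.16 for the mediators and 0.16 for the targets, against 0.12 for all genes. Of 11 relatives of the 6 genes, Tcf7 and Tcf7l1 among them, 5 changed along the coronal series, where 25.4% of all genes did. These included Prkce (0.00124) and Prkca (0.00487), kinases of the Prkcd family with a positive linear term and their highest level in fraction 6. Prkcb (0.0108) had a raised middle, Rorb (0.0166), the relative of Rora, had a positive linear term and its highest level in fraction 7, and Ramp1 (0.0329) fell from its highest level in fraction 1. Calcrl, the receptor that Ramp3 accompanies, was detected in 5 of 22 fractions and did not pass (0.425).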

How the data were processed

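Brain slabs of 3 mice were hybridised to 22 Agilent SurePrint G3 mouse arrays with 1 colour. Per the file headers, the authors scanned them and ran Feature Extraction 10.10.1.1, whose processed intensity has background removed. A table of log2 values was also deposited, scaled to the 75th percentile. Of its 47544 probes 47478 were matched, and 99.899% of its values lay within 0.02 of those computed here. From the processed intensity, log2 was taken minus the 75th percentile of each array, after leaving out controls and 131 to 187 outlier spots an array. No spot was saturated.

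Probes were named by RefSeq accession (26553 matched, GRCm38.p6), and per gene the probe with the highest median over 22 arrays was used. Of 55600 probes, 39621 were well above background in at least 1 fraction of each series. Arrays had 29605 to 41965 such probes, and precision is limited by there being 1 array a fraction. In limma 3.58.1 (R 4.3.3) a quadratic curve per series was fitted over all arrays together (13 residual degrees of freedom), with Benjamini-Hochberg adjustment over 39621 probes and a threshold of 0.05. The linear term is the last end minus the first, the quadratic term the ends minus the middle. The difference fits subtracted the Tcf7l2 probe. Shares used linear signal. Correlations, Python 3.11.15 and numpy 2.4.6, are given without p. The scripts were tested on simulated data.

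The genes, marker lists and tests were chosen with earlier results of these data known. Genes named beyond them are the 3 nearest by r for each gene, and the listed genes that passed. Alternatives were other scalings, normexp background correction (offset 50, on median signal), other filters, spike-in and slide terms, other probes, single series and leaving out each fraction. Cubic and quartic coronal terms were added after seeing the data. Some listed genes are not reported here and were left out of their lists.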

Additional observations from a re-analysis of the deposited data

Results flagged for a closer look

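Lef1 in sagittal fraction 6, the highest of the 6 sagittal levels at -0.0167, stood far from the others: its gap to the next highest was 0.63 of the range of the series. Chance puts about 1 in 20 groups past this limit, and 1 of 18 groups was past it here. That fraction pooled several slabs. The endothelium list (Cldn5, Pecam1, Cdh5, Slco1c1 and Flt1, each detected in every fraction) also stood highest there, with a summed log2 level of 5.75 against 4.53 to 4.80 in sagittal fractions 1 to 5. That sum gives most weight to the brightest gene. The mean of the 5 genes was 0.43 above its own mean there, with an SD over genes of 0.55. In the sagittal linear test in limma 1 of the 5 passed, beside 9.69% of all genes. It was Cldn5, a tight junction gene of brain endothelium (adjusted p 0.0192), and the others ranged from Slco1c1 (0.161) to Pecam1 (0.882). Flt1 was highest in sagittal fraction 3. The part of endothelial cells or of the pooling in the Lef1 level was not tested.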

How the results depend on the processing

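The coronal count of 3 of the 6 genes became 1 with a107 as a covariate, 1 on arrays with the slope in range, 0 with slide as a block, 1 with a linear term alone, 0 with each series fitted alone, and 5 with cubic and quartic terms. Of all 39621 probes 7850 passed at first and 4311, 4133, 1598, 2821, 634 and 9057 under these settings. The horizontal count of 0 became 2 with quantile normalization (Gbx2, Rora) and 1 among probes detected in all 22 fractions (Rora), and the sagittal linear count of 0 became 1 without scaling (Prkcd), where 3226 of 39621, 4167 of 25815 and 2765 of 39621 probes passed, against 2604 and 4045 of 39621 at first. The coronal difference count of 3 became 5 with normexp or with cubic and quartic terms, and 0 with a107, on arrays with the slope in range or with slide. Of all 39618 probes 36844 differed at first and 38616, 39411, 1869, 1760 and 0 under these settings. The coronal difference count was 4 among probes detected in all 22 fractions and 2 with the next Tcf7l2 probe, where 25158 of 25813 and 4139 of 39618 probes differed. The horizontal difference count of 0 became 1 among probes detected in all 22 fractions (3553 of 25813 probes differed), and the sagittal one 3 with normexp, 2 with slide and 4 among those probes, where 35424 and 30207 of 39618 and 24476 of 25813 probes differed. Pairs above 0.85 were 1 on arrays with the slope in range, 4 in the horizontal and 3 in the sagittal series. With the next Tcf7l2 probe the coronal direction turned (adjusted p 0.347 in limma), as did the differences from it of Lef1 (0.0412), Prkcd (0.118) and Rora (0.0205). The coronal adjusted p of Ramp3 ran from 0.0026 to 0.594 as 1 fraction was left out, and without coronal fraction 10 (0.0448) its curve turned the other way. Leaving out 1 fraction gave counts of 1 to 4 (coronal), 0 to 3 (horizontal), 0 to 1 (sagittal linear), 0 to 0 (sagittal quadratic), 0 to 5, 0 to 3 and 0 to 4 (coronal, horizontal and sagittal differences) and 0 to 0 pairs. No paired analysis was possible because each series is 1 mouse and equal fraction numbers of different axes mark different slabs. The causes were not tested. Signal over background limited Gbx2, whose lowest values are bounds.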
